A study of Homo sapiens with 22 samples.

Results

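The first introns and the later introns of protein-coding genes were compared as targets of the piggyBac transposon in K562, an established line of human chronic myeloid leukemia cells. Introns were taken from the Ensembl canonical transcript of each protein-coding gene of GENCODE 44 on chromosomes 1 to 22 of hg38, with a length of at least 5 kb. The 2 kb next to the 5' end of each intron, any stretch also covered by a gene of the other strand and any stretch shared by 2 protein-coding genes were left out. Of 37555 introns of that length, 6967 first introns and 23285 introns of rank 3 or higher, called later introns, kept at least 1 TTAA site. The 4587 second introns were set apart. Later introns came from 7247 genes, and 4364 genes contributed to both classes.

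The data are 20 Calling Cards libraries, in which a transposase from a helper plasmid inserts a barcoded self-reporting transposon from a donor plasmid. According to the labels, 10 libraries were made with the helper hyPBase and 10 with hyPBase-centrip, each from 5 ug of donor and 5 ug of helper plasmid, and all cells were selected with puromycin at 2 ug/ml for 11 days. The 20 libraries held 52154230 insertions, 1509672 to 3596762 per library. The labels describe dishes and RNA preparations that each combined 3 transfections and do not settle whether every library had transfections of its own, so the p-values below measure the spread between libraries only. The insertions shared by 2 libraries were divided by the number given by their counts per site and barcode shares. For libraries with consecutive replicate numbers the median ratio was 1.06 over 18 pairs (1.01 to 1.16). Over 72 other pairs of the same helper it was 0.982 (0.974 to 1.13), so these ranges overlap. Over 100 pairs between helpers it was 0.977 (0.972 to 0.984), and all pairs with consecutive numbers lay above that range. Whether such neighbouring libraries share material was not tested, and the p-values treat all libraries as separate. The files hold insertions and no expression values, so the identity of the cells was not checked against marker genes.

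The piggyBac transposase inserts its transposon at the tetranucleotide TTAA and is known to favour open chromatin and active regulatory regions. The first intron of a gene is usually its longest and often contains enhancers and other regulatory elements near the promoter, whereas later introns lie deeper in the gene body. A self-reporting transposon is read from RNA that starts at its own promoter and runs into the neighbouring genome, so an insertion inside an intron can lie along the gene's transcript or against it. TTAA is its own reverse complement, and every site can therefore take the transposon in both orientations.

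To show what such a target looks like, the site with the most insertions is given for the 5 first introns and the 5 later introns with the highest insertion density among those with at least 100 sites, each with 30 bases on either side. All sequences are the plus strand of hg38 read 5' to 3', and the capitals mark the TTAA. The windows of the first introns are chr4:40203866-40203929 in RHOH, chr3:45137915-45137978 in CDCP1, chr2:157262273-157262336 in GALNT5, chr1:40384536-40384599 in SMAP2 and chr1:246569744-246569807 in CNST. CDCP1 lies on the minus strand and the other 4 genes on the plus strand.
RHOH intron 1: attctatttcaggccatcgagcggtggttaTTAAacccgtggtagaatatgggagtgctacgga
CDCP1 intron 1: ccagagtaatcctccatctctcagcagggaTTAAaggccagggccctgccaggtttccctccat
GALNT5 intron 1: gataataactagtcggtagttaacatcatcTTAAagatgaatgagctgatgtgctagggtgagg
SMAP2 intron 1: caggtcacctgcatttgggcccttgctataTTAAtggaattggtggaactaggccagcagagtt
CNST intron 1: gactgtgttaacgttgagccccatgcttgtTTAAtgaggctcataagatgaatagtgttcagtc

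The windows of the later introns are chr10:50317407-50317470 in SGMS1, chr17:59805173-59805236 in VMP1, chr7:121076322-121076385 and chr7:121040328-121040391 in introns 5 and 3 of CPED1, and chr7:50355767-50355830 in IKZF1. SGMS1 lies on the minus strand and the other genes on the plus strand.
SGMS1 intron 8: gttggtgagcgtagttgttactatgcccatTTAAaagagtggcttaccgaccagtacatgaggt
VMP1 intron 7: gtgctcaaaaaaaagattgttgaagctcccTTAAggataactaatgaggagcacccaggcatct
CPED1 intron 5: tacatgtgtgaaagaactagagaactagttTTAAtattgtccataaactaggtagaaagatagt
CPED1 intron 3: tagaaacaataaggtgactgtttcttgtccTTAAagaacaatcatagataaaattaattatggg
IKZF1 intron 3: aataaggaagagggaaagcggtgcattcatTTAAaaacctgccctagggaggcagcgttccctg

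The 10 sites took 459 to 748 insertions each over the 20 libraries. In the densest first intron, that of RHOH, the leading site took 709 insertions, 352 recorded on the gene's strand and 357 on the other, and this was 3.91% of the insertions in the intron. In the densest later intron, intron 8 of SGMS1, the leading site took 460 insertions, 81 recorded on the gene's strand and 379 on the other. No single site made up more than 9.98% of its intron, the share of the GALNT5 site. Across all first introns, the 18.4% of TTAA sites with a T before and an A after the motif took 30.0% of the insertions. In later introns the same context made up 18.3% of sites and took 30.2% of insertions. A T before and an A after the motif stood at 0 of the 5 sites shown from first introns and at 2 of the 5 from later introns.

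First introns took more insertions per TTAA site than later introns. The density of each library was divided by that library's average over the 18023956 TTAA sites of chromosomes 1 to 22, so that a relative density of 1 is the genome average. In first introns the relative density was 1.41 in the lowest library, 1.43 in the median library and 1.44 in the highest. In later introns the lowest value was 0.830, the median 0.865 and the highest 0.874. The lowest first-intron value lay above the highest later-intron value. The density was 1.65-fold higher in first introns (log2 ratio 0.73 ± 0.02, SD, n = 20 libraries; higher in 20 of 20; two-sided sign-flip permutation test, p = 1e-05, the smallest that 100000 resamples can give). Within each helper, all 10 libraries had the same direction (exact sign-flip permutation test, p = 0.00195, the smallest that 10 libraries allow).

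The density went down step by step with the rank of the intron. It was 1.43 ± 0.01 in first introns (SD, n = 20), 1.12 ± 0.01 in second introns and 0.983 ± 0.010 in introns of rank 3. Introns of rank 4 to 5 had 0.907 ± 0.012, those of rank 6 to 10 had 0.848 ± 0.010 and those above rank 10 had 0.754 ± 0.010. No library overlapped between neighbouring ranks, the nearest being ranks 4 to 5, with a lowest library of 0.869, and ranks 6 to 10, with a highest library of 0.858. The median distance of the sites from the gene start grew from 30.2 kb in first introns to 113 kb at rank 3 and 254 kb above rank 10.

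**Figure D1:**
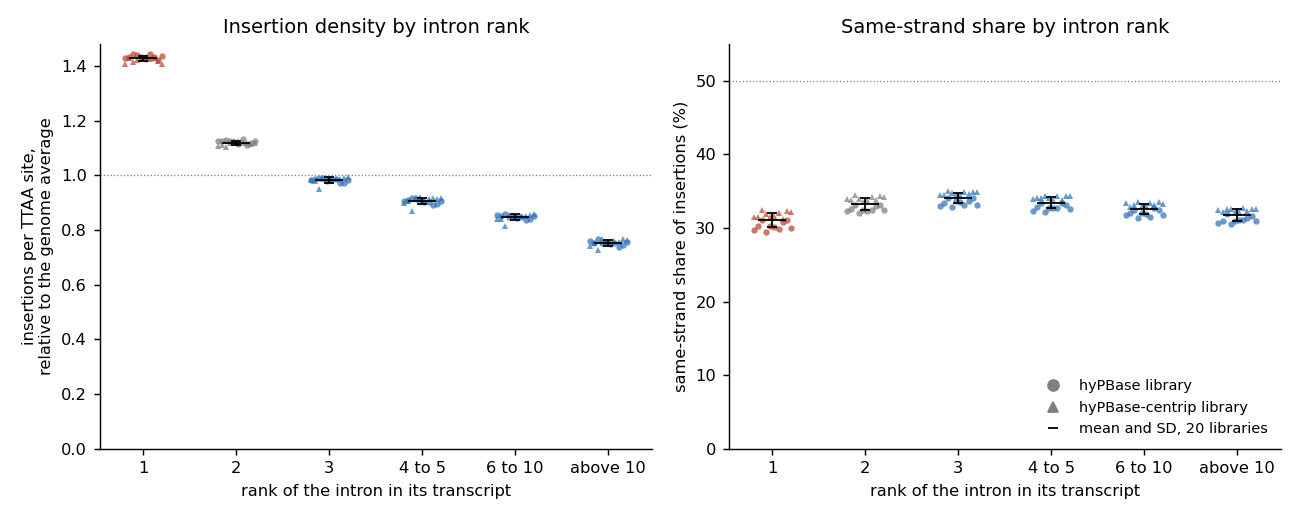
Insertions per TTAA site relative to the genome average (left) and the share of insertions on the gene's strand (right) by intron rank, with 1 point per library and the mean and SD of 20 libraries. Density falls from 1.43 at rank 1 to 0.754 above rank 10. The share does not follow the rank in this way, with 31.1% at rank 1, 34.1% at rank 3 and 31.8% above rank 10. The libraries of rank 1 (29.5% to 32.4%) and above rank 10 (30.5% to 32.7%) overlap in share.

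Since first introns lie nearer to the gene start, the classes were compared at equal distance from it. Between 5 and 10 kb the relative density was 1.87 ± 0.02 in first introns and 1.19 ± 0.03 in later introns, a ratio of 1.57. The ratio was 1.61 at 10 to 20 kb and 1.36 at 20 to 50 kb. At 50 to 100 kb the densities were 1.14 ± 0.01 and 1.11 ± 0.01, and the ratio of 1.03 was still above 1 in 20 of 20 libraries. Beyond 100 kb the order turned. First introns had 0.792 ± 0.012 at 100 to 200 kb against 0.989 ± 0.013 in later introns, and 0.460 ± 0.010 against 0.759 ± 0.009 at 200 to 500 kb, a ratio of 0.607. Beyond 500 kb the ratio was 0.797. Few first introns reach so far. Those with at least 50 sites in the bin numbered 360 at 100 to 200 kb, 94 at 200 to 500 kb and 12 beyond. For later introns these counts were 3070, 2838 and 1052. All 8 distance bins had p = 1e-05 by the sign-flip permutation test over 20 libraries, also after Benjamini-Hochberg adjustment over the bins. The bin from 2 to 5 kb, with a ratio of 2.04, holds only 1381 sites of later introns and was left out of the matching below.

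**Figure D2:**
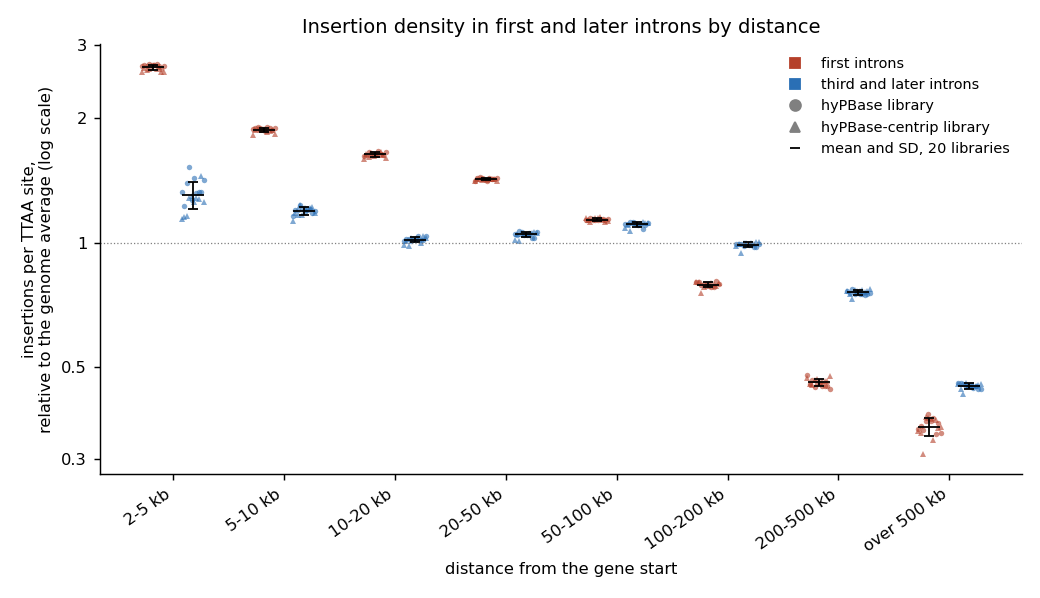
Insertions per TTAA site relative to the genome average (log scale) against distance from the gene start, with 1 point per library and the mean and SD of 20 libraries. First introns lie above later introns up to 100 kb, with 1.87 against 1.19 at 5 to 10 kb, and below them beyond, with 0.460 against 0.759 at 200 to 500 kb.

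With the distance bins of later introns weighted to those of first introns, the relative density was 1.31 ± 0.01 in first introns and 1.04 ± 0.01 in later introns. The ratio was 1.27 (log2 ratio 0.34 ± 0.02, SD, n = 20; higher in 20 of 20 libraries; sign-flip permutation test, p = 1e-05). This value rests on summed insertions. When the median over introns with at least 50 sites in a bin replaced the sum, the matched log2 ratio was 0.01, a value without a test. In single bins these intron medians were 0.940 in first and 0.670 in later introns at 10 to 20 kb, 0.885 and 0.745 at 20 to 50 kb, and 0.676 and 0.721 at 50 to 100 kb. At 5 to 10 kb they were 0.934 over 405 first introns and 1.25 over only 20 later introns. The matched log2 ratio was also smaller with introns of at least 20 kb (0.12), at equal intron length (0.15), in genes with both classes (0.19), at equal distance from both the gene start and the 3' end of the intron (0.19) and with barcodes at 1 position and orientation collapsed (0.21), each still above 0 at p = 1e-05. At equal distance from the 3' end alone it was larger, at 0.76 (1.69-fold).

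The introns of a class differed widely among themselves. Among introns with at least 50 TTAA sites, the median relative density was 1.16 over 4425 first introns and 0.613 over 11732 later introns. The densest 10% of first introns lay above 3.87 and the sparsest 10% below 0.286. For later introns these limits were 1.76 and 0.152. In all, 55.9% of first introns and 28.3% of later introns were above the genome average. Set against the density of the surrounding 1 Mb, first introns had 1.18 ± 0.01 times the local density and later introns 0.813 ± 0.008 times (SD, n = 20). The density per site was not corrected for the number of copies of a region in K562 cells, whose chromosomes carry gains and losses.

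The advantage of first introns also differed with intron length. Between 5 and 10 kb of length, the relative density was 1.85 ± 0.02 in 2090 first introns and 0.893 ± 0.015 in 12235 later introns (SD, n = 20 libraries). It was 1.90 ± 0.02 and 0.932 ± 0.012 at 20 to 50 kb and 1.60 ± 0.01 and 0.931 ± 0.010 at 50 to 100 kb. Above 100 kb, 421 first introns had 0.858 ± 0.009 and 504 later introns 0.653 ± 0.011. At equal distance from the gene start within a length class, the ratio was 1.27 at 5 to 10 kb, 1.45 at 10 to 20 kb, 1.51 at 20 to 50 kb and 1.16 at 50 to 100 kb. These ratios rest on 1 distance bin with enough sites in each of the 2 shortest classes and on 2 bins in each of the next 2. Above 100 kb, over 5 bins, the ratio was 0.816, and first introns were less dense in 20 of 20 libraries (sign-flip permutation test, p = 1e-05 in each length class, also after Benjamini-Hochberg adjustment).

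The densest first intron among those with at least 100 TTAA sites belonged to RHOH, a small GTPase of blood cells, at chr4:40197301-40242713 on the plus strand. Its relative density was 19.6 in the lowest library, 21.6 in the median and 24.9 in the highest. The first introns of CDCP1, a transmembrane glycoprotein, GALNT5, an enzyme of O-linked glycosylation, SMAP2, a regulator of ARF GTPases, and CNST, the connexin trafficking protein consortin, followed with means of 21.1, 17.6, 17.0 and 16.8. The densest later intron was intron 8 of SGMS1, a sphingomyelin synthase, at chr10:50311416-50327204 on the minus strand. Its relative density was 23.2 in the lowest library, 26.9 in the median and 31.8 in the highest. Intron 7 of VMP1, a membrane protein of autophagy, had a mean of 24.5, introns 5 and 3 of CPED1 had 23.1 and 22.1, and intron 3 of IKZF1, the lymphoid transcription factor Ikaros, had 21.4. These 10 densities, chosen as the highest, were 6.37 to 9.61 when barcodes at 1 position and orientation were collapsed. Collapsing counts each position and orientation at most 1 time per library. That sets an upper limit per site, so values of dense introns must fall.

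Within a gene, the first intron and the later introns differed in density more often than not. Of 2583 genes with at least 50 TTAA sites in both classes, 1520 had a denser first intron (58.8%) and 644 a less dense one (24.9%) at an adjusted p below 0.05 in edgeR's quasi-likelihood test. Together these were 83.8% of the genes, and 419 were not called. The median log2 ratio over all 2583 genes was 0.41, a 1.33-fold higher density in the first intron, and the middle 50% of genes lay between -0.21 and 1.13. The direction was the same in all 20 libraries for 912 of the genes called higher and for 295 of those called lower.

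**Figure D3:**
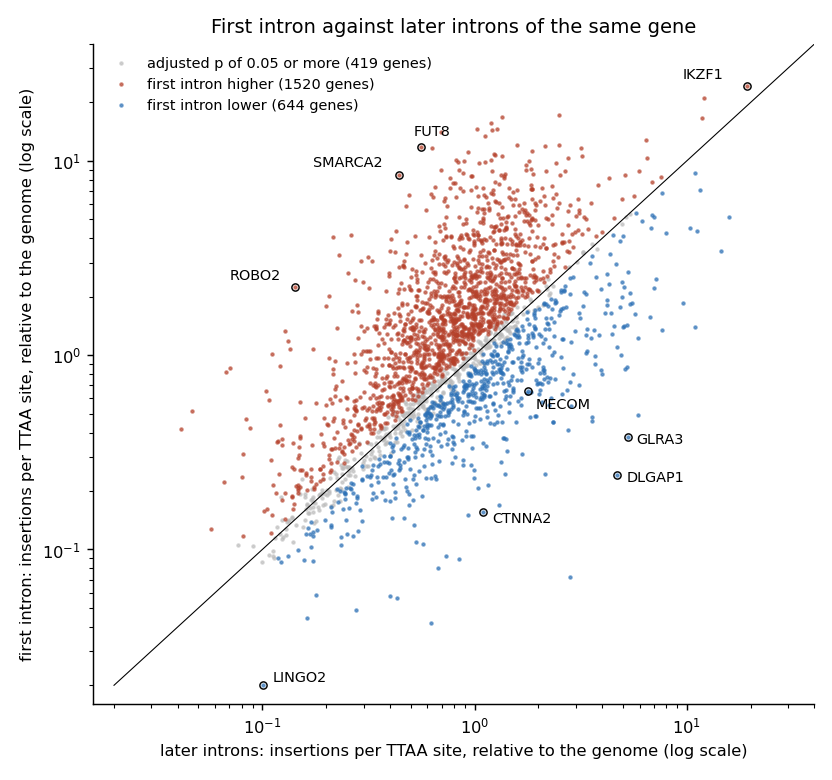
Relative insertion density of the first intron against that of the later introns in 2583 genes (both axes log scale, means of 20 libraries), coloured by the edgeR call. More genes lie above the diagonal (1520 called) than below it (644 called). LINGO2 is drawn at the edge of 0.02, above its value of 0.000233.

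The largest ratio was that of FUT8, the enzyme that adds core fucose to glycoproteins. Its first intron, at chr14:65413215-65455620, had a relative density of 10.6 in the lowest library, 11.8 in the median and 13.2 in the highest, and its later introns had 0.437, 0.563 and 0.651. The groups did not overlap, and the density was 20.9-fold higher in the first intron (log2 ratio 4.38 ± 0.03, SE), or 8.55-fold higher with barcodes at 1 position and orientation collapsed. SMARCA2, an ATPase of the SWI/SNF chromatin remodeling complex, had 7.39, 8.43 and 10.1 in its first intron against 0.328, 0.439 and 0.515 in its later introns (log2 ratio 4.25 ± 0.06, SE). DYNC2I1, a dynein subunit of ciliary transport, had a log2 ratio of 4.29 and ATG2B, a lipid transfer protein of autophagy, one of 4.21. ELF1, an ETS transcription factor of blood cells, had a mean of 9.02 in its first intron and 0.699 in its later introns (log2 ratio 3.68). ROBO2, an axon guidance receptor, had a less dense first intron than these, at 2.24, but only 0.142 in its later introns (log2 ratio 3.94). The later introns of PLEKHB2, also among the 10 largest ratios, held only 34 insertions over the 20 libraries. CCPG1, a receptor for autophagy of the endoplasmic reticulum, and FBXO15 were also among the 10 largest, which ranged from 12.9-fold to 20.9-fold. With barcodes at 1 position and orientation collapsed, these 10 ratios were smaller, from 4.87-fold to 9.27-fold, and each was still called by edgeR. The upper limit per site that collapsing sets acts most on the denser class.

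At the other end, the first intron of LINGO2, a neuronal transmembrane protein, held 1 insertion at its 2428 TTAA sites over all 20 libraries, at chr9:28947915-29212921, and its later introns held 1679 insertions at 5858 sites. The ratio of the densities was 0.00144, with an exact 95% interval of 3.64e-05 to 0.00802 that covers counting error only. The number of copies of this stretch in K562 cells was not determined. Whether the whole first intron is present in these cells was therefore not tested. DLGAP1, a scaffold protein of the postsynaptic density, had 0.200, 0.244 and 0.299 in its first intron in the lowest, median and highest library and 4.37, 4.67 and 5.42 in its later introns. The groups did not overlap (log2 ratio -4.27 ± 0.03, SE, or -3.18 with barcodes collapsed). GLRA3, a glycine receptor subunit, had means of 0.378 and 5.26, GLI2, a transcription factor of Hedgehog signaling, 0.493 and 5.91, and DLC1, a GTPase-activating protein, 0.244 and 2.16. With barcodes collapsed their log2 ratios went from -3.77 to -2.82, from -3.55 to -2.24 and from -3.16 to -2.46. The first introns of HEATR4, NSF, C2CD6 and PDE4DIP were also among the 10 smallest ratios. They held only 21, 26, 16 and 17 insertions over the 20 libraries, and the later introns 472, 1300, 1085 and 778. In NSF, an ATPase of vesicle fusion, 99.5% of the sites in the first intron had a flank of 50 bases that also stands next to another autosomal TTAA, and in PDE4DIP, a centrosomal protein, 99.2%. The values were 34.6% in HEATR4 and 13.5% in C2CD6. In the later introns they were 65.1% in NSF, 92.6% in PDE4DIP, 1.67% in HEATR4 and 6.47% in C2CD6. The part of these sites in the 4 ratios was not tested. Over all first introns 2.44% of sites had such a flank and took 0.380% of the insertions. Over all later introns these were 3.55% and 0.455%. Among the 10 largest and 10 smallest ratios, the largest adjusted p by edgeR was 1.29e-34, that of PDE4DIP. These genes were chosen as the extremes of this same test, so the p-values are no separate support for them.

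Of 45 chromatin regulators, 25 could be tested, and the first intron was denser in 20 of them and less dense in 3, which is 80% and 12% beside 58.8% and 24.9% of all genes tested. Their median log2 ratio was 0.77, beside 0.41 for all genes tested. NSD2, a histone H3 lysine 36 methyltransferase, had a log2 ratio of 1.85. ARID1A, a subunit of the SWI/SNF complex, had a log2 ratio of 1.75, and with barcodes collapsed these were 1.06 and 1.36. DNMT3A, the DNA methyltransferase, KDM4B and SMARCA4 were the 3 with a less dense first intron, at log2 ratios of -0.81, -0.63 and -0.30. DNMT3A, KDM4B and SMARCA4 were named after their values were seen.

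Of 46 neuronal adhesion and receptor genes, 31 could be tested, 11 with a denser and 12 with a less dense first intron (35.5% and 38.7%, beside 58.8% and 24.9% of all genes tested), and the median log2 ratio was -0.03. Both classes were sparse in these genes, with a median relative density of 0.264 in first introns and 0.276 in later introns, beside 1.10 and 0.799 over all genes tested. CTNNA2, a neuronal catenin, had 0.156 in its first intron and 1.10 in its later introns (log2 ratio -2.78), and GRM5, a glutamate receptor, 0.125 and 0.281 (log2 ratio -1.11). NTM and PTPRN2 had log2 ratios of 1.46 and 1.19 and KCNQ3, a potassium channel subunit, 1.07, against the sign of the list's median. Of 38 hematopoietic genes only 9 could be tested, 5 with a denser and 2 with a less dense first intron (median log2 ratio 0.24). These shares of 55.6% and 22.2% are near those of all genes tested, 58.8% and 24.9%. ANK1 and EPB41, which link the erythrocyte membrane to its skeleton, had log2 ratios of 1.72 and 1.21, and of 0.97 and 0.78 with barcodes collapsed. KIT, the stem cell factor receptor, had 0.65, and MECOM, a transcription factor of hematopoietic stem cells, had -1.45. IKZF1 was dense in both classes, at 24.2 and 19.3 (log2 ratio 0.34), as was ABL1, part of the fusion gene that is amplified in K562 cells, at 6.60 and 5.62 (log2 ratio 0.24). IKZF1, in the hematopoietic list, and ABL1 were named here after their values were seen.

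To ask how the density of introns goes with that of the promoter, 9381 genes were grouped by the insertions per TTAA site within 2 kb of the gene start, a window that the intron stretches of the same gene do not reach. The 10 hyPBase libraries set the quartiles and the 10 hyPBase-centrip libraries gave the values. Both sets come from K562 cells, so the number of copies of a region enters both the grouping and the values. The split between helpers does not remove this. First introns had a relative density of 0.447 ± 0.006 in the lowest quartile and 3.09 ± 0.03 in the highest (SD, n = 10), a 6.91-fold difference. Later introns had 0.419 ± 0.007 and 1.44 ± 0.03, a 3.44-fold difference. Both had the same direction in 10 of 10 libraries (exact sign-flip permutation test, p = 0.00195). At equal distance from the gene start, the ratio of first to later introns was 0.885 in the lowest quartile, 1.09 and 1.53 in the middle ones and 1.86 in the highest. Its log2 value was 1.07 ± 0.03 higher in the highest than in the lowest quartile (exact sign-flip permutation test, p = 0.00195, n = 10).

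**Figure D4:**
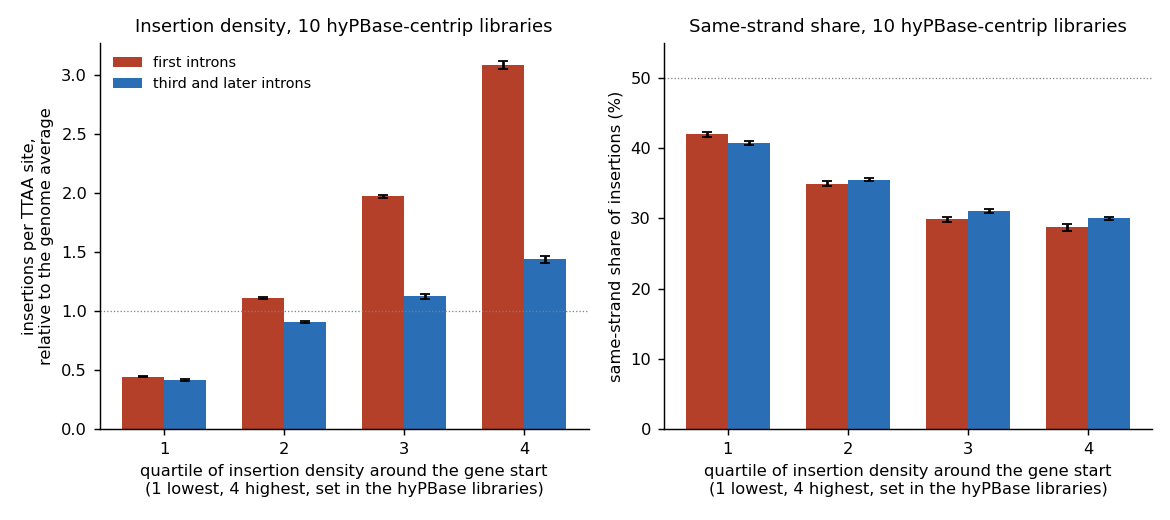
Relative insertion density (left) and same-strand share (right) in first and later introns, by quartile of the insertion density within 2 kb of the gene start, as means of 10 hyPBase-centrip libraries with SD. Density in first introns goes from 0.447 to 3.09 and in later introns from 0.419 to 1.44, and the share falls from 41.9% to 28.7% and from 40.7% to 30.0%.

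Insertions in introns were recorded on the strand opposite to the gene more often than on the gene's strand. The share of insertions recorded on the strand of the gene is called the same-strand share here, and 50% is the value for equal use of both orientations. How the recorded strand relates to the direction of the transposon's own transcript is not given in the sources used here. In first introns the share was 29.5% in the lowest library, 31.1% in the median and 32.4% in the highest. In later introns it was 31.7%, 33.1% and 33.8%. Each library was below 50% in both classes (sign-flip permutation test over 20 libraries, p = 1e-05 for each), and the share was lower in first introns by 1.90 points ± 0.26 (SD, n = 20; a difference of -1.90, below 0 in 20 of 20 libraries; sign-flip permutation test, p = 1e-05). The relative density on the gene's own strand was 0.887 ± 0.023 in first and 0.569 ± 0.014 in later introns, a ratio of 1.56. On the opposite strand it was 1.97 ± 0.04 and 1.16 ± 0.02, a ratio of 1.70. First introns were thus denser in both orientations, in 20 of 20 libraries.

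The share varied widely with the distance from the 3' end of the intron, where the splice acceptor lies. In the last 1 kb it was 7.72% ± 0.60 in first introns and 11.3% ± 0.6 in later introns (SD, n = 20). It was 18.3% ± 0.6 and 22.3% ± 0.7 at 2 to 5 kb, 27.7% ± 1.0 and 32.2% ± 0.9 at 5 to 10 kb, and 33.7% ± 1.0 and 40.5% ± 0.7 at 20 to 50 kb. Beyond 100 kb it reached 42.5% ± 1.0 and 44.1% ± 0.7. First introns had the lower share in all 8 bins and in 20 of 20 libraries (sign-flip permutation test, p = 1e-05 in each bin, also after Benjamini-Hochberg adjustment). At equal distance from the 3' end, the difference was -5.20 points ± 0.26. From the last 1 kb to 5 to 10 kb from the 3' end, the density of first introns on the opposite strand went from 2.00 ± 0.05 to 2.53 ± 0.05, and that on the gene's own strand from 0.167 ± 0.012 to 0.970 ± 0.036. In later introns the opposite strand had 1.37 ± 0.04 in the last 1 kb and 1.28 ± 0.02 at 5 to 10 kb, and the gene's own strand 0.174 ± 0.007 and 0.609 ± 0.022. Beyond 100 kb the densities were 0.631 on the gene's strand and 0.854 on the other in first introns, and 0.605 and 0.766 in later introns.

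**Figure D5:**
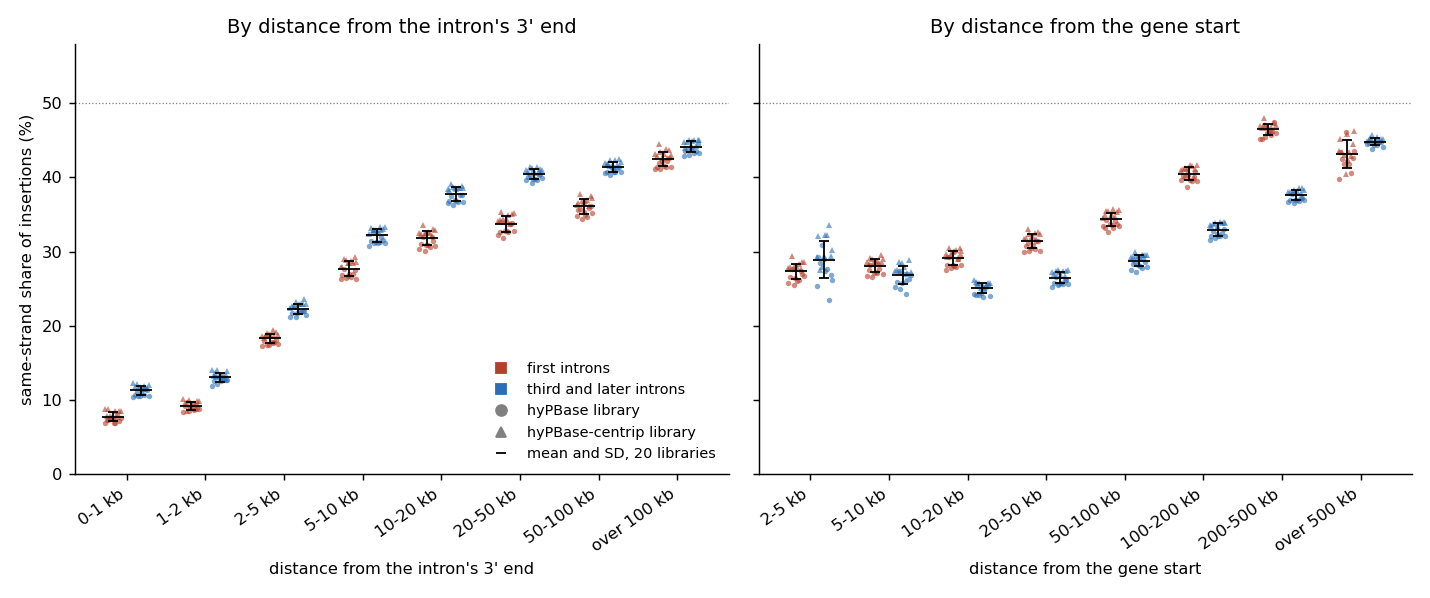
Same-strand share of insertions (percent) by distance from the 3' end of the intron (left) and from the gene start (right), with 1 point per library and the mean and SD of 20 libraries. By the 3' end, first introns lie below later introns in every bin, from 7.72% against 11.3% in the last 1 kb. By the gene start they lie above them from 5 to 500 kb, with 46.5% against 37.6% at 200 to 500 kb.

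The sign of the difference between the classes turned with what was held equal. At equal distance from the gene start, the share was 4.35 points ± 0.25 higher in first introns (SD, n = 20; higher in 20 of 20 libraries; sign-flip permutation test, p = 1e-05). At 20 to 50 kb from the gene start it was 31.4% ± 0.9 in first and 26.5% ± 0.8 in later introns, and at 200 to 500 kb 46.5% ± 0.8 and 37.6% ± 0.7. Beyond 500 kb the order turned, with 43.2% in first and 44.8% in later introns (higher in 4 of 20 libraries, adjusted permutation p = 0.000583). In that bin only 12 first introns had at least 50 sites, against 1052 later introns. With equal length class beside equal distance from the gene start, the difference was -2.95 points, a mean over length classes that did not share a sign. Within these classes the distance from the 3' end was not held equal. The difference was -8.57 points at 5 to 10 kb of length and -10.9 at 10 to 20 kb, each over only 1 distance bin. It was -3.91 points at 20 to 50 kb and -4.18 at 50 to 100 kb, over 2 bins each. Over 100 kb, with 5 bins, it was 1.18 points above 0 (higher in 20 of 20 libraries, permutation p = 1e-05). With equal distance from both the gene start and the 3' end it was -0.81 points, and among introns of at least 20 kb, at equal distance from the gene start, -0.85 points. Each of these 3 had p = 1e-05 by the same test. First introns, with a median length of 16223 bp, were longer than later introns, with 9533 bp.

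Short introns had the lowest shares in both classes. In introns of 5 to 10 kb the share was 18.03% ± 0.82 in first and 19.3% ± 0.6 in later introns. It was 24.1% ± 0.8 and 27.3% ± 0.8 at 10 to 20 kb, 28.98% ± 0.99 and 34.6% ± 0.8 at 20 to 50 kb, and 32.2% ± 1.0 and 38.1% ± 0.7 at 50 to 100 kb. Above 100 kb it was 39.7% ± 0.9 and 43.1% ± 0.6. Without matching, in every length class first introns had the lower share in 20 of 20 libraries (sign-flip permutation test, p = 1e-05). The share also went down from the lowest to the highest promoter quartile, by 13.2 points ± 0.3 in first introns and by 10.7 points ± 0.2 in later introns (SD, n = 10; exact sign-flip permutation test, p = 0.00195 for each). In these hyPBase-centrip libraries it was 41.9% and 28.7% in first introns, and 40.7% and 30.0% in later introns.

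Intron by intron, 80.1% of all 12893 introns tested, second introns included, had fewer insertions on the gene's strand at an adjusted p below 0.05 by edgeR, and 4.65% had more, together 84.7%. Among 4077 first introns tested, 3429 had fewer (84.1%) and 181 had more (4.44%). Among 6752 later introns, 5259 had fewer (77.9%) and 313 had more (4.64%). The median share per intron was 29.4% in first and 33.6% in later introns. Within a gene the classes were nearly balanced, since 876 of 1825 genes with at least 200 insertions in each class had the lower share in the first intron, and the median shares were 30.1% and 29.4%.

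The first intron of RREB1, a zinc finger transcription factor, had the smallest p among first introns with an excess on the opposite strand. Its share was 7.83% in the lowest library, 10.3% in the median and 12.2% in the highest (log2 of same over opposite strand -3.12 ± 0.03, SE). The first introns of AFDN, the junction protein afadin, and ILRUN had shares of 8.20% and 8.82%. Among later introns, intron 8 of SGMS1 had 4.36%, 5.98% and 8.33% (log2 ratio -3.93 ± 0.05, SE). Intron 6 of SGMS1 and intron 3 of CPED1 had shares of 18.6% and 19.8%. All 20 libraries were below 50% in each of these 6 introns.

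The opposite pattern was found in the first intron of TMEM244, where the share was 63.4% in the lowest library, 68.9% in the median and 74.1% in the highest (log2 ratio 1.12 ± 0.04, SE). The first introns of GRAP2, an adaptor protein of leukocyte signaling, and RHAG, the Rh-associated glycoprotein of erythrocytes, had 60.7% and 64.01%. Among later introns, intron 4 of TBXAS1, thromboxane synthase, had 70.9%, intron 7 of GRIK1, a kainate receptor subunit, 73.0% and intron 3 of ZNF611 79.5%. All 20 libraries were above 50% in each of these 6 introns. Over the 12 introns named for their orientation, which were chosen for the smallest p, the largest adjusted p by edgeR was 4.53e-39.

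Insertions on the gene's strand were also supported by slightly fewer reads. The mean was 3.37 ± 0.74 reads per insertion on the gene's strand and 3.52 ± 0.80 on the other strand in first introns (SD, n = 20), a ratio of 0.961 within libraries. In later introns the means were 3.11 ± 0.67 and 3.28 ± 0.73, a ratio of 0.951. Both ratios were below 1 in 20 of 20 libraries (sign-flip permutation test, p = 1e-05). The base composition of the classes differed little, with 41.7% GC in first and 40.2% in later introns, and with 6.53 and 7.06 TTAA sites per kb. Runs of at least 10 A, which an oligo(dT) primer could bind in a transcript, stood 16.8 times per 100 kb on the gene's strand of first introns and 26.7 times on the other strand. In later introns the values were 16.2 and 21.2.

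The helpers differed little in density and more in orientation. For hyPBase the log2 ratio of first to later introns was 0.73 ± 0.01, and for hyPBase-centrip 0.72 ± 0.02 (SD over 10 libraries each; difference -0.01, two-sided permutation test of the helper labels, p = 0.079, adjusted 0.119). Without hyPBase-centrip replicate 3 the difference was -0.02 with p = 0.00112. The same-strand share in first introns was 30.3% ± 0.5 with hyPBase and 31.8% ± 0.4 with hyPBase-centrip, 1.54 points higher (permutation test, p = 3e-05, 9e-05 after adjustment over 6 comparisons). In first introns the highest hyPBase library, at 31.1%, lay below the lowest hyPBase-centrip library, at 31.2%. In later introns the share was 32.3% ± 0.4 and 33.6% ± 0.2, 1.27 points higher with hyPBase-centrip (permutation test, p = 3e-05, adjusted 9e-05). The libraries of the helpers also differed in reads per insertion, with a median of 3.74 for hyPBase (3.01 to 5.39) and 2.93 for hyPBase-centrip (2.23 to 3.89). The part of sequencing depth in the difference in share was not tested.

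Few introns were called as different in density between the helpers. Over all 12893 introns tested, edgeR called 0.512% denser and 1.01% less dense with hyPBase-centrip, together 1.52%. Among first introns 25 were denser (0.613%) and 64 less dense (1.57%), and among later introns 24 (0.355%) and 40 (0.592%). Before adjustment, 586 of 4077 first introns and 827 of 6752 later introns had p below 0.05 by edgeR. An intron that was not called may therefore still differ by a small amount. RTN4, which encodes the membrane protein Nogo, led both classes. Its first intron, at chr2:55028221-55049744, had a relative density of 1.64 ± 0.24 with hyPBase and 2.71 ± 0.34 with hyPBase-centrip (log2 ratio 0.74 ± 0.09, SE; adjusted p by edgeR 8.22e-12), and its intron 3 had 1.60 ± 0.20 and 2.29 ± 0.20 (log2 ratio 0.49 ± 0.06, SE; adjusted p by edgeR 1.57e-09). The first introns of ARHGDIB and SLC26A3, an anion exchanger, had log2 ratios of 0.62 each, and intron 5 of GABRG3 and intron 18 of ERC1 had 0.24 and 0.30. The smallest p with a lower density were those of the first introns of ATF7IP (log2 ratio -0.25), ASPH (-0.28) and PHF21A (-0.25), and of intron 40 of LRBA (-0.21), intron 3 of IMMP2L (-0.17) and intron 7 of FBXL13 (-0.30). With barcodes at 1 position and orientation collapsed, only 1 first intron and 2 later introns were denser and 2 of each class less dense with hyPBase-centrip, and 7 of these 12 introns no longer passed the threshold.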

How the data were processed

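Insertions from 20 Calling Cards libraries of K562 cells were used, and 2 further libraries, whose labels name different helpers, were not used here. The deposited files list 1 insertion per line with its strand, barcode and a raw count of reads, without normalization. The authors' processing notes name Trimmomatic, BWA, SAMtools and hg38, with versions and parameters not given in the sources used here. Insertions were assigned to TTAA sites of hg38 and to introns of GENCODE 44. Each barcode at a position and orientation was 1 insertion. With barcodes collapsed, a position and orientation counted at most 1 time per library, which sets an upper limit on the density of a site. First and later introns were compared within libraries by sign-flip permutation tests (100000 resamples, exact over 10 libraries), and the helpers by permuting the helper labels. Genes and introns that reached 10 insertions in 10 or more libraries were tested with edgeR 4.0.16 (quasi-likelihood, Benjamini-Hochberg adjustment, R 4.3.3), with DESeq2 1.42.0 as an alternative. For genes, the 10 insertions were counted over both classes together, so 1 class alone could reach them. Both classes needed 50 TTAA sites. Counts were also simulated with a fixed, assumed spread between libraries and no difference outside the planted ones. On these, edgeR recovered 91% of 1.5-fold differences between first and later introns of a gene. It recovered 69% of those between helpers and 63% of those between orientations. The real data need not share these settings, so the rates are not the power of the real tests. Other steps used Python 3.11.15, numpy 2.4.6, scipy 1.17.1 and pandas 2.3.3.

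Named were the 10 largest and 10 smallest gene ratios called in the same direction in 20 of 20 libraries, the 5 densest introns of each class, the 3 introns per class and direction with the smallest p for orientation and helper, and the 4 members of each gene list with the largest ratio in either direction, with up to 3 that go against the list's median by more than 1 log2 unit. The intron classes, gene lists and tests were chosen with earlier results of these data known. Intervals cover counting error only. Some items that this rule names are not reported here.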

Additional observations from a re-analysis of the deposited data

Results flagged for a closer look

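In later introns, hyPBase-centrip replicate 3 had a relative density of 0.830, the lowest of its 10 libraries, and the nearest library had 0.855. The gap was 0.584 of the whole range, above the 95% limit of Dixon's test for 10 samples. It was 1 of 16 groups of libraries checked, and chance alone singles out about 1 in 20. Without this library the log2 ratio of first to later introns was 0.72, against 0.73 with it. It also had the fewest insertions of its helper, 1638175. The hyPBase libraries with the fewest, replicates 9 and 8 with 1509672 and 1774712, had the lowest values of their helper, 0.854 and 0.850. In contrast, hyPBase-centrip replicate 8, with 2350404 insertions, had 0.867. The part of library size in these values was not tested.

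The difference in same-strand share between first and later introns was not equal for the helpers. It was -2.03 points ± 0.15 with hyPBase and -1.77 points ± 0.28 with hyPBase-centrip (SD, 10 libraries each), a difference of 0.27 points (permutation test of the helper labels, p = 0.0162, adjusted 0.0324 over 6 comparisons). With barcodes collapsed it was 0.19 points, with an adjusted permutation p of 0.0706. At equal distance from the gene start the helpers differed by 0.16 points (permutation test, p = 0.164).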

How the results depend on the processing

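The matched same-strand share kept its sign under 15 alternatives and reversed under 4, at -0.85 points with introns of at least 20 kb, -2.95 at equal length class, -5.20 at equal distance from the 3' end and -0.81 at equal distance from both ends. The last 3 and the sites with unique flanks were chosen after seeing the data. As a median over introns, the log2 density ratio was 0.92 at all distances and 0.013 at equal distance. The helper difference in density ratio was 0.000545 and, at equal distance, 0.00113 with at least 2 reads per insertion, and -0.019 without hyPBase-centrip replicate 3. The causes were not tested.

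Introns that differed between helpers (first denser, first less dense, later denser, later less dense: 25, 64, 24 and 40) numbered 11 first and 13 later denser and 20 later less dense by DESeq2, and 21 first and 16 later less dense without the filter on low counts. With at least 2 reads per insertion, 24 first and 26 later introns were less dense, and with barcodes collapsed the 4 counts were 1, 2, 2 and 2. Introns with more and fewer insertions on the gene's strand numbered 303 and 5360 first and 812 and 16683 later introns without that filter, which tests more introns. Fewer were called with at least 2 reads per insertion (3356 later introns with fewer), with barcodes collapsed (104 first and 196 later with more) and with odd-numbered replicates, which are fewer libraries (89 first and 150 later with more, 2454 later with fewer). Gene counts and promoter quartiles kept their direction and call under every alternative run, as did the helper differences in share within each class. The helper difference in share between first and later introns, called at an adjusted permutation p of 0.0324, was no longer called with at least 2 reads per insertion (0.36 points, adjusted permutation p = 0.0502) or with barcodes collapsed (0.19 points, adjusted permutation p = 0.0706).

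With the replicate number as a block, the helper difference in density ratio stayed at -0.014 (exact permutation test, p = 0.137) and -0.0048 at equal distance (p = 0.498), those in share were 1.54, 1.27, 0.27 and 0.16 points (exact permutation p = 0.00195, 0.00195, 0.0156 and 0.191), and the 4 counts were 27, 55, 24 and 38. Same-numbered libraries deviated together with r from -0.124 to 0.114, over 0.1 in 1 of 10 pairs, and 2 libraries correlated best with their own number, so the numbers were not taken as pairs.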
